A study of Mus musculus with 8 samples.

Results

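The genes described here are those that place peptides from inside a cell on its surface with MHC class I: the heavy chains *H2-K1*, *H2-D1* and *H2-T23*, the light chain *B2m*, the peptide loading genes *Tap1*, *Tap2*, *Tapbp* and *Pdia3*, the peptide-trimming gene *Erap1* and the regulator *Nlrc5*. They were chosen by name from the known pathway, without proteasome genes, and are 10 of the 54146 genes counted. The authors flow-sorted macrophages with and without FCGR4 from the epididymal white adipose tissue (eWAT) of 4 obese mice and sequenced the RNA of each population of each mouse (8 libraries). All 4 mice were C57Bl6 males, which ate an HFHC diet, rich in fat and cholesterol, freely for 24 weeks and then stayed for 2 weeks on stCR, a short caloric restriction with 30% less food. The 2 groups therefore share diet, restriction and animal, and were sorted apart by whether the cells carried FCGR4, an activating Fc receptor for IgG. The labels give no age at harvest. The antibodies listed by the authors for sorting adipose and aortic cells include some against B220, CD3, Ly6G and SiglecF, which mark B cells, T cells, neutrophils and eosinophils, but how these were gated for the 8 libraries was not stated.

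An MHC class I molecule is a heavy chain bound to β2-microglobulin, the product of *B2m*, and holds a short peptide cut from proteins of the cytosol. The peptide is pumped into the endoplasmic reticulum by the transporter TAP, a pair of the *Tap1* and *Tap2* products, is trimmed there by ERAP1, and is loaded with the help of tapasin (*Tapbp*) and the disulfide isomerase ERp57 (*Pdia3*). Nearly all nucleated cells carry class I, which CD8+ T cells read, while macrophages can also load it with peptides of material they have engulfed. Interferon γ and NLRC5 are known to raise transcription of these genes through a shared block of promoter elements that includes an X2 box and a Y box.

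Because the promoters of these genes are known to share elements, the 250 bases before a RefSeq start site (GRCm38.p6, the assembly also called mm10) were read. The set of RefSeq promoters used held 8 of the 10 genes. It had no entry for *Tap2* and *Nlrc5*, which were therefore not searched. Those of *B2m* (chr2:122147437-122147686, + strand), *H2-K1* (chr17:34000348-34000597, - strand, the upstream of 2 listed starts), *H2-D1* (chr17:35262844-35263093, + strand) and *H2-T23* (chr17:36032702-36032951, - strand) are shown 5′ to 3′, since the light chain and the heavy chains form the molecule itself. Capitals mark the Y box (CCAAT, or ATTGG where it lies on the other strand), the X2 core (TGACG) and the core of the interferon-stimulated response element, here a pair of GAAA runs with 2 bases between them on either strand.
B2m: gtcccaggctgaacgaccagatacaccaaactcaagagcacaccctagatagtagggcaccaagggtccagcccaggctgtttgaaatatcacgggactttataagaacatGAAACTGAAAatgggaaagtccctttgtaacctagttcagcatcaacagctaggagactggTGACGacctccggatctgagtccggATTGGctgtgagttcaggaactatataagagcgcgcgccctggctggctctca
H2-K1: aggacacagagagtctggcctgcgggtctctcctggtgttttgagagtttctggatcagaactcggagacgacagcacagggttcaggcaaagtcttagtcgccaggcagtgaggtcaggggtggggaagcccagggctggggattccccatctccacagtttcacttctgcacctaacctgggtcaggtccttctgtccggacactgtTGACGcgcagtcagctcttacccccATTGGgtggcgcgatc
H2-D1: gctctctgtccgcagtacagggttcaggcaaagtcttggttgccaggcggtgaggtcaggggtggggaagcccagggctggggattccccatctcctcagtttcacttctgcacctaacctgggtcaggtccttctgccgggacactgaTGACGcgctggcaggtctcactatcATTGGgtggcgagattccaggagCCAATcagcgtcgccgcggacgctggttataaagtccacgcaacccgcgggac
H2-T23: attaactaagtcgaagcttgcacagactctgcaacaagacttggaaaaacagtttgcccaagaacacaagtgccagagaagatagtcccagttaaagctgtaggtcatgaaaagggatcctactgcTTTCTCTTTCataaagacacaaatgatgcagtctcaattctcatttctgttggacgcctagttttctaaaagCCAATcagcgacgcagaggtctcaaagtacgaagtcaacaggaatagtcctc
The starts used do not all lie at the edge of the gene as counted, whose coordinates are given below. The stretches read for *Tapbp*, *H2-D1* and *Erap1* lie inside the counted gene. Those of *H2-T23* and *Pdia3* lie partly inside it, and those of *B2m* and *Tap1* touch its edge. The Y box was found in 7 of the 8 promoters, against 34.5% of 27025 promoters of the same length, and was missing only from that of *Erap1*. The X2 core was in 5 of 8 (*H2-K1*, *H2-D1*, *B2m*, *Tap1* and *Pdia3*), against 17.9% of all. In *B2m*, *H2-K1* and *H2-D1* the X2 core was followed by an opposite Y box after exactly 20 bases, an arrangement held by 25 of all promoters (0.0925%), *H2-M3* among them. This spacing was noticed in the printed sequences before it was counted. The interferon-stimulated core was in *B2m* and *H2-T23*, 2 of 8, against 3.04% of all. The interferon γ-activated site, TTC and GAA with 3 or 4 bases between them, was in none of the 8, against 12.6% of all. These are exact matches of letters and say nothing of binding. Looser forms of each element were not sought, so a promoter without a match may still hold one.

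The libraries held between 35992794 and 66856746 counts, and the class I genes took between 0.830% and 1.49% of them. *Fcgr4* itself, on the log2 scale, was 1.61 ± 0.173 (SE) higher in FCGR4+ libraries (adjusted P = 0.0162, edgeR's quasi-likelihood test), with 139 to 236 CPM (counts set relative to TMM-normalized library size) against 48.5 to 82.9. The 12 macrophage markers examined summed to between 28384 and 53018 CPM in FCGR4+ and between 23572 and 47593 CPM in FCGR4- libraries, and none of them passed the threshold. Their sum was higher in FCGR4+ cells of 4 of 4 mice. Of the 12, 10 had a positive difference (49.7% of all genes tested) and 7 were higher in 4 of 4 mice (8.38% of all). Their median difference was 0.28 on the log2 scale, beside -0.00 over all genes. For the marker counts that follow, 0.0819% of all genes passed the threshold as higher and 1.19% as lower. Of 8 nonclassical monocyte markers, 2 (*Cd300e* and *S1pr5*) were higher in FCGR4+ cells and none lower, with a median of -0.23 and sums of 89.8 to 237 CPM against 112 to 221 CPM. Markers of several other cell types were higher in FCGR4- libraries: all 9 mast cell and basophil markers tested were lower in FCGR4+ cells, with sums of 14.5 to 30.5 CPM against 391 to 2147 CPM, and the same held for 5 of 9 neutrophil markers (122 to 548 against 383 to 2390 CPM), 6 of 10 fibroblast markers (640.0 to 733 against 896 to 2219 CPM), 4 of 10 dendritic cell markers (17.0 to 24.0 against 58.9 to 107 CPM), 2 of 6 B cell markers (179 to 333 against 408 to 2323 CPM), 6 of 11 T and NK cell markers (72.4 to 172 against 65.6 to 219 CPM) and 1 of 6 mesothelial markers (1.06 to 9.84 against 5.09 to 46.4 CPM). No endothelial or adipocyte marker passed. *Mcpt8* and *Cr2*, at 0 counts in every FCGR4+ library, were also too low in FCGR4- libraries to be tested. All of these cells carry class I too. The part of any of these cell types, macrophages included, in the values below was not tested, and in bulk RNA fewer cells of a type and less RNA per cell cannot be told apart.

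None of the 10 class I genes passed the threshold (adjusted P under 0.1) between FCGR4+ and FCGR4- macrophages by edgeR's quasi-likelihood test in a model paired by mouse. Among all 17095 genes tested, 0.0819% were higher and 1.19% lower in FCGR4+ cells. At an unadjusted P under 0.05, 1 of the 10 remained, *B2m*, against 9.77% of all genes. DESeq2 with the same paired model called *B2m* higher and no other member, against 1.12% of all genes called higher by that tool. The authors' own comparison of these populations used an earlier version of DESeq2 with a model paired by mouse. The fitted differences were small: their median was 0.16 on the log2 scale, beside -0.00 over all genes, and they ran from -0.10 for *Tap2* to 0.42 for *B2m*. The sign was positive for 9 of 10, and for 4 of 10 without mouse 1. With library size alone as the scaling it was positive for 5 of 10, but that scaling also moved the median of all genes, to -0.09, beside 0.07 for the class I genes. In no member were the 4 FCGR4+ libraries all above or all below the 4 FCGR4- libraries, a separation seen in 3.91% of all genes.

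**Figure D1:**
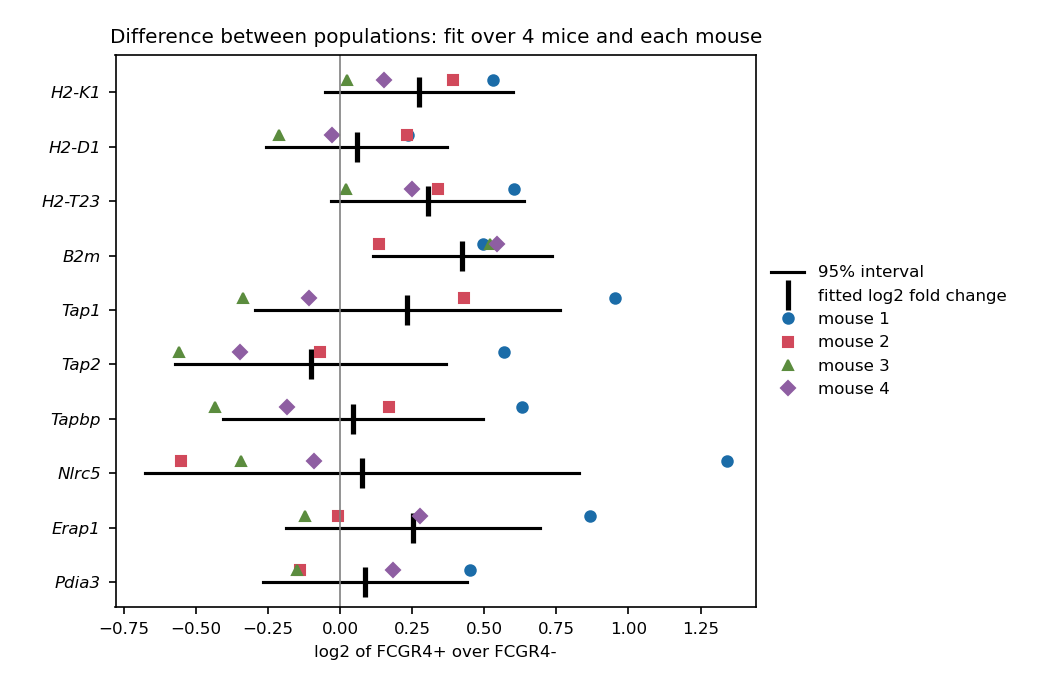
Difference between FCGR4+ and FCGR4- macrophages for each class I gene on the log2 scale (horizontal axis): the upright bar is edgeR's fitted value, the line its 95% interval, and the symbols are the 4 mice, each as its own log2 CPM ratio. Of the 10 intervals, only that of *B2m* (0.11 to 0.73) lies above 0, and mouse 1 is farthest to the right for every gene but *B2m*.

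*H2-K1* (chr17:33996017-34000333) encodes the classical heavy chain K. It had 1253, 2010, 1368 and 1211 CPM in the FCGR4+ libraries of mice 1 to 4 and 867, 1531, 1345 and 1090 CPM in their FCGR4- libraries. FCGR4+ cells were thus the higher of the pair in 4 of 4 mice, by little in mouse 3. The groups overlapped, since the FCGR4- values of mice 2 and 3 lay above the lowest FCGR4+ value. The fitted difference was 0.27 ± 0.138 (SE, 95% interval -0.05 to 0.60, adjusted P = 0.563).

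*H2-D1* (chr17:35262730-35267499), the classical heavy chain D, had the highest CPM of the 10 in every library, a measure that does not allow for the length of a transcript. Its FCGR4+ libraries held 4591, 9460, 4535 and 4485 CPM and its FCGR4- libraries 3896, 8059, 5253 and 4571 CPM. Mouse 2 stood above the other 3 mice in both populations, and the order of the populations differed between mice, with FCGR4+ higher in mice 1 and 2 only. On the log2 scale the difference was 0.06 ± 0.133 (SE, -0.26 to 0.37, adjusted P = 0.893), an interval that corresponds to between 0.837 and 1.29 times the FCGR4- level.

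*H2-T23* (chr17:36029773-36032855) encodes Qa-1, a nonclassical heavy chain that presents leader peptides of other class I chains to receptors of NK cells. Its values were 335, 414, 349 and 365 CPM in FCGR4+ and 221, 327, 344 and 306 CPM in FCGR4- libraries. FCGR4+ cells were higher in 4 of 4 mice, and FCGR4- cells of mouse 1 were lowest of all 8 libraries, yet the ranges met between 335 and 344 CPM. The fit gave 0.30 ± 0.143 (SE, -0.03 to 0.64, adjusted P = 0.541).

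*B2m* (chr2:122147686-122153083), the light chain shared by all class I molecules, showed the largest difference of the 10. FCGR4+ libraries held 1754, 2153, 2735 and 2198 CPM (mean 2210.1 ± 403, SD, n = 4) and FCGR4- libraries 1245, 1961, 1906 and 1507 CPM (1655 ± 339.9). Each mouse had more *B2m* in its FCGR4+ cells, mouse 2 by the least (log2 ratio 0.13, against 0.49 to 0.54 in the others), and the groups overlapped only through mouse 1, whose FCGR4+ value lay under the FCGR4- values of mice 2 and 3. The fitted difference was 0.42 ± 0.132 (SE, 0.11 to 0.73), 1.34-fold, with adjusted P = 0.322 over all genes tested by edgeR. With DESeq2 the value was also 0.42 and the adjusted P was 0.0523, so the call depended on the tool, and the range over all 13 other settings was 0.0523 to 0.942.

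**Figure D2:**
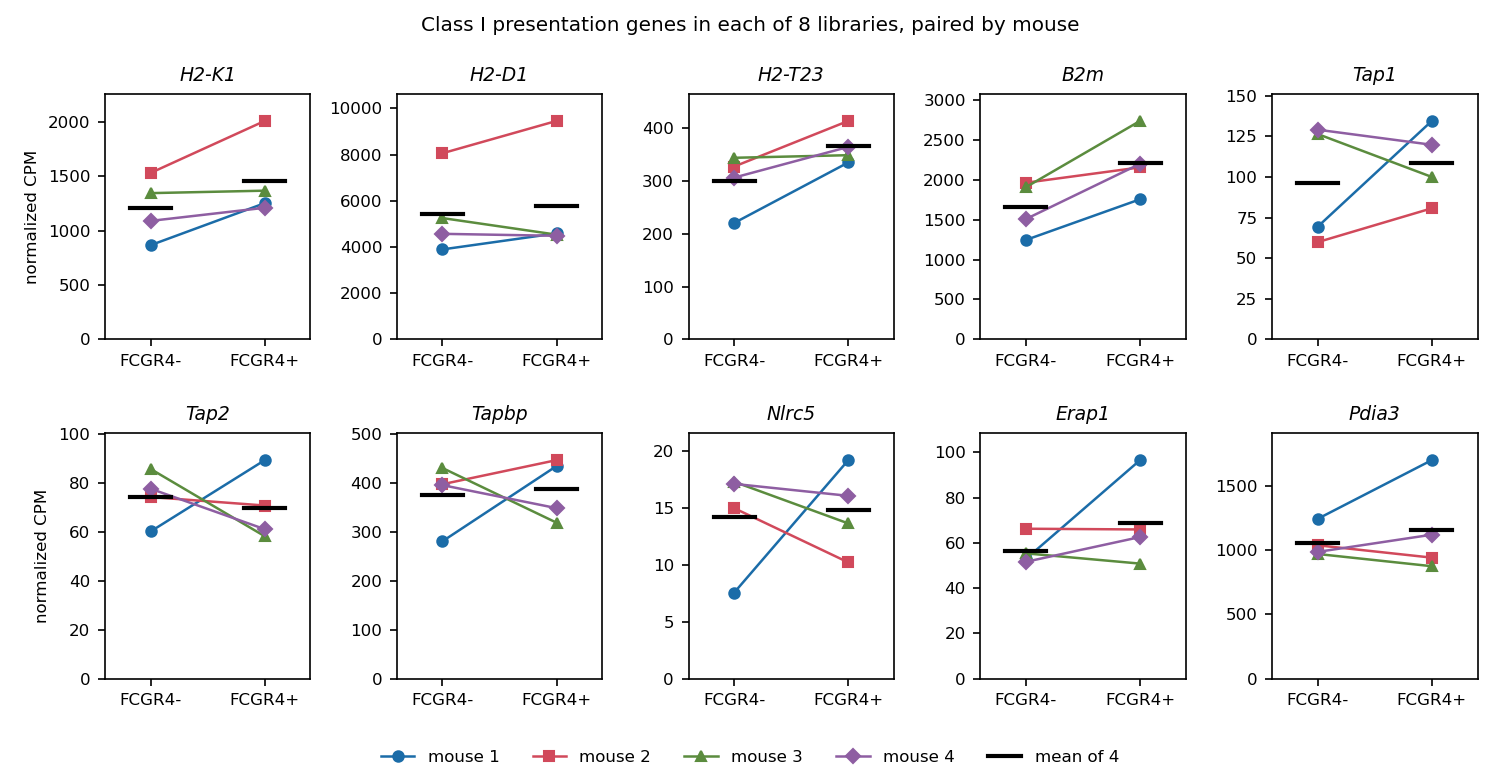
Normalized CPM of each of the 10 class I genes (vertical axes, each from 0) in the FCGR4- and FCGR4+ library of each mouse, joined by a line; the black bars are group means of 4 libraries. The FCGR4+ end of the line is the higher one in 4 of 4 mice for *H2-K1*, *H2-T23* and *B2m*, while for *Tap1*, *Tap2*, *Tapbp* and *Nlrc5* it is higher in mouse 1 and lower in mice 3 and 4.

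*Tap1* (chr17:34187553-34197225) and *Tap2* (chr17:34203527-34216321) encode the subunits of the peptide transporter. *Tap1* had 135, 80.7, 100 and 119.8 CPM in FCGR4+ and 69.4, 59.9, 126 and 129 CPM in FCGR4- libraries. *Tap2* had 89.2, 70.6, 58.1 and 61.0 CPM against 60.1, 74.1, 85.5 and 77.5 CPM. In mouse 1 both were higher in FCGR4+ cells, in mice 3 and 4 both were lower, and in mouse 2 *Tap1* was higher and *Tap2* near even. The fits gave 0.23 ± 0.225 (SE, -0.30 to 0.76, adjusted P = 0.730) for *Tap1* and -0.10 ± 0.200 (SE, -0.57 to 0.37, adjusted P = 0.867) for *Tap2*, the only member with a negative value.

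*Tapbp* (chr17:33915899-33929288), the gene of tapasin, which holds TAP and the empty heavy chain together, followed the same pattern. FCGR4+ libraries had 435, 448, 319 and 349 CPM, and FCGR4- libraries 281, 398, 431 and 396 CPM. The population with the higher value was FCGR4+ in mice 1 and 2 and FCGR4- in mice 3 and 4, so the fitted difference was near 0 (0.04 ± 0.192, SE, -0.41 to 0.50, adjusted P = 0.945).

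*Pdia3* (chr2:121413775-121438687), whose product ERp57 serves the folding of many glycoproteins besides class I, had 1703, 943, 876 and 1121 CPM in FCGR4+ and 1245, 1039, 971 and 987 CPM in FCGR4- libraries. Mouse 1 was highest in both populations. The difference was 0.09 ± 0.150 (SE, -0.27 to 0.44, adjusted P = 0.851). *Erap1* (chr13:74639568-74693201), which shortens peptides to the length class I holds, had 96.6, 65.9, 50.8 and 62.6 CPM against 52.9, 66.3, 55.4 and 51.6 CPM. Its FCGR4+ value in mouse 1 stood apart, the other 7 libraries lying between 50.8 and 66.3 CPM, and the fit gave 0.25 ± 0.188 (SE, -0.19 to 0.69, adjusted P = 0.661). Without mouse 1 it was 0.05.

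*Nlrc5* (chr8:94434356-94527272) encodes the activator of class I gene transcription and was the least abundant member, with at most 1168 counts in a library. FCGR4+ libraries had 19.2, 10.2, 13.6 and 16.1 CPM, and FCGR4- libraries 7.56, 15.0, 17.3 and 17.1 CPM. It was higher in FCGR4+ cells of mouse 1 alone and lower in those of the other 3 mice. Its interval was the widest of the 10 (0.08 ± 0.320, SE, -0.68 to 0.83, adjusted P = 0.945), so differences between 0.625-fold and 1.78-fold could not be told from none at this spread.

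Levels can be compared between genes only per length, here as CPM per kilobase of exon. In FCGR4+ macrophages *B2m* was highest at 2570 ± 468 (SD, n = 4), followed by *H2-D1* (2236 ± 955), *H2-K1* (560.0 ± 143), *Pdia3* (370 ± 119.8), *H2-T23* (127 ± 11.9), *Tapbp* (118 ± 19.2), *Tap1* (19.9 ± 4.28), *Tap2* (18.4 ± 3.71), *Erap1* (9.48 ± 2.68) and *Nlrc5* (1.74 ± 0.448). In FCGR4- macrophages the order was the same except within 3 neighboring pairs, whose libraries overlapped in both populations: *H2-D1* (2111 ± 709) was above *B2m* (1924 ± 395.3), *Tapbp* (114 ± 19.9) above *H2-T23* (104 ± 19.0), and *Tap2* (19.6 ± 2.81) above *Tap1* (17.6 ± 6.70). *H2-K1* (463 ± 112) and *Pdia3* (338 ± 40.2) also overlapped, while *Erap1* (7.77 ± 0.915) and *Nlrc5* (1.68 ± 0.539) stood below the rest with no overlap. The heavy chains K and D, *B2m* and *Pdia3* were above at least 98.9% of all tested genes per kilobase, *Tap1* and *Tap2* above 83.2% and 83.4%, *Erap1* above 72.7%, and the regulator *Nlrc5* above 42.9%.

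**Figure D3:**
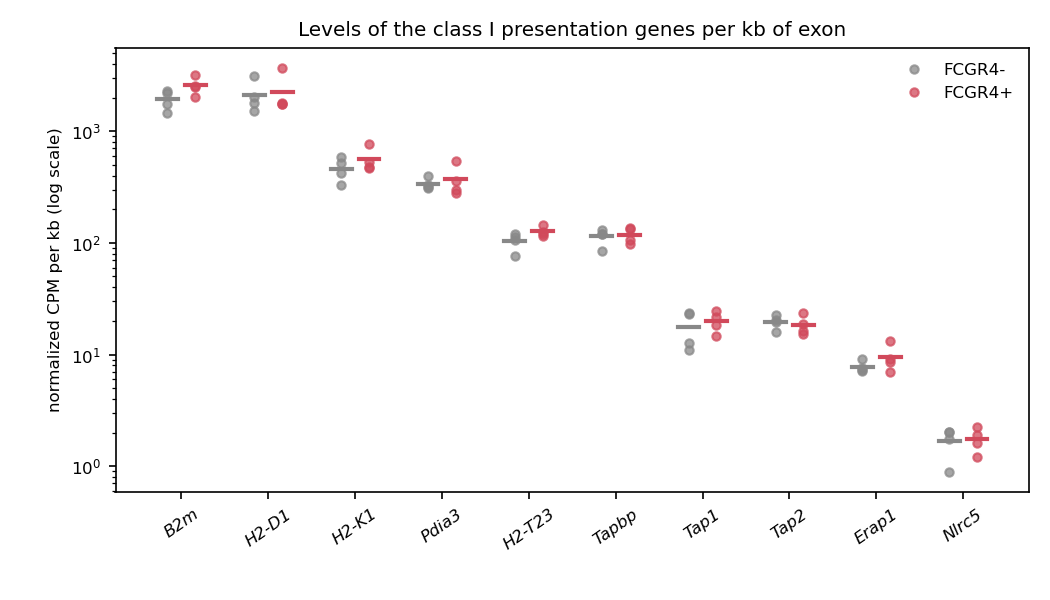
CPM per kilobase of exon (vertical axis, log scale) of each class I gene in the 4 FCGR4- (grey) and 4 FCGR4+ (red) libraries, with bars at the group means, ordered by the FCGR4+ mean. The chains *B2m*, *H2-D1* and *H2-K1* lie more than 10 times above the transporter genes, in both populations. The heavy chain *H2-T23* does not (means 127 in FCGR4+ and 104 in FCGR4- libraries).

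Ratios between members of the same library do not depend on library scaling. The ratio of *H2-D1* over *H2-K1* per kilobase was 3.70, 4.76, 3.35 and 3.75 in FCGR4+ and 4.54, 5.32, 3.95 and 4.24 in FCGR4- libraries, lower in FCGR4+ cells of 4 of 4 mice (mean 3.89 ± 0.606 against 4.51 ± 0.591, SD). *Tap1* over *Tap2* was 1.04, 0.789, 1.19 and 1.36 against 0.798, 0.558, 1.02 and 1.15, higher in 4 of 4 mice. *B2m* over the sum of the 3 heavy chains was 0.858, 0.546, 1.32 and 1.10 against 0.754, 0.596, 0.8294 and 0.763, higher in all but mouse 2. By an exact two-sided permutation test that exchanged the populations within mice, the P values were 0.125, 0.125 and 0.250, adjusted over the 3 ratios to 0.188, 0.188 and 0.250, and 0.125 is the smallest value 4 pairs can give, so none could pass. *H2-D1* and *H2-K1* share sequence, since 5.44% of the 50-base words of *H2-D1* and 4.08% of those of *H2-K1* also occur in the other.

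The level of class I genes differed between mice by more than the median gene for 5 of the 10 and by less for the other 5. Averaged over both populations of a mouse, *H2-D1* spanned 1.05 on the log2 scale from mouse 1 to mouse 2, a 2.06-fold range that 14.8% of the 8088 genes with at least 10 CPM reached or passed. The range was 0.84 for *Tap1*, 0.75 for *H2-K1*, 0.66 for *Pdia3*, 0.63 for *B2m*, 0.46 for *Nlrc5*, 0.44 for *H2-T23*, 0.43 for *Erap1*, 0.27 for *Tapbp* and 0.09 for *Tap2*, beside a median of 0.59 for those 8088 genes. The mice did not rank alike for every gene: mouse 2 was highest for the 3 heavy chains and *Tapbp* and lowest for *Tap1*, mouse 1 was highest for *Tap2*, *Erap1* and *Pdia3*, mouse 3 for *B2m*, and mouse 4 for *Tap1* and *Nlrc5*.

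Mouse 1 contributed most to the positive direction. All 10 genes were higher in its FCGR4+ than in its FCGR4- cells, with a median log2 ratio of 0.59 (0.03 over all genes), against 6 of 10 in mouse 2 (median 0.15), 3 of 10 in mouse 3 (-0.18) and 5 of 10 in mouse 4 (0.06). The FCGR4- library of mouse 1 was the lowest of all 8 for 6 of the 10 genes, a place it held for 10.4% of all genes, and the FCGR4+ library of mouse 1 was highest for 5. Among the 4 FCGR4- libraries, that of mouse 1 had the highest sum of mast cell and basophil markers, 2147 CPM against 391 to 1186 CPM in the other 3, and of adipocyte markers (156 CPM). It had the lowest sums of neutrophil (383 CPM), dendritic cell (58.9 CPM) and nonclassical monocyte markers (112 CPM), while its macrophage marker sum (26806 CPM) lay within the range of the other 3. The part of these cells in its low class I values was not tested. Without mouse 1, the median difference of the 10 genes was -0.00.

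**Figure D4:**
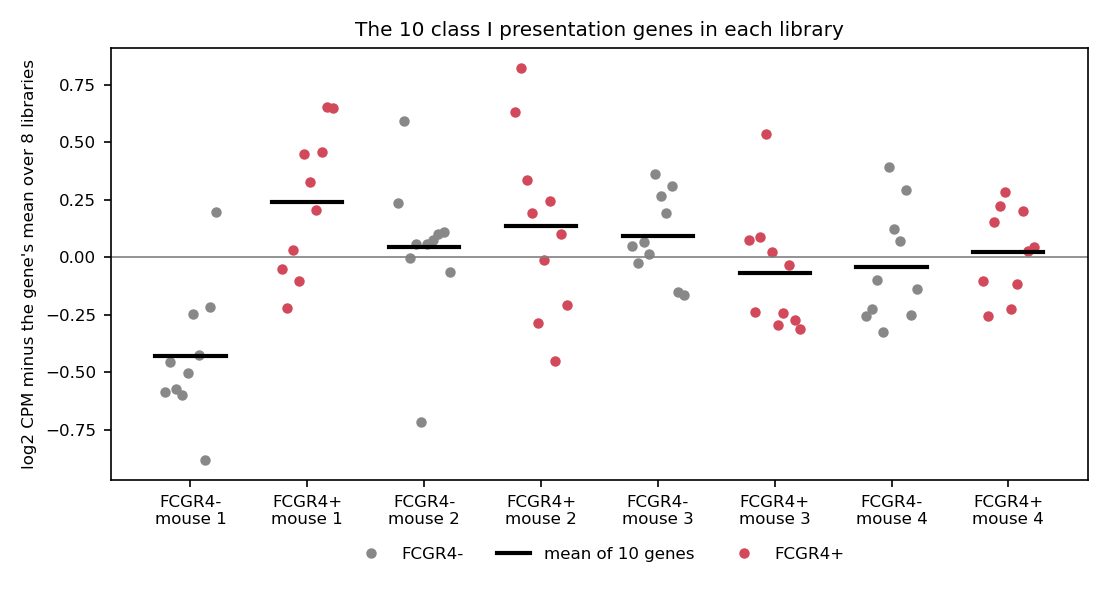
Log2 CPM of the 10 class I genes in each library after subtracting each gene's mean over the 8 libraries (vertical axis); points are genes, from left to right *H2-K1*, *H2-D1*, *H2-T23*, *B2m*, *Tap1*, *Tap2*, *Tapbp*, *Nlrc5*, *Erap1* and *Pdia3*, and black bars are the mean of the 10. The FCGR4- library of mouse 1 has the lowest mean (-0.43) and its FCGR4+ library the highest (0.24).

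Mice 1 and 2 carry another animal ID prefix (S395) than mice 3 and 4 (S491), and the labels do not say what the prefix marks. The median difference of the class I genes was 0.40 on the log2 scale with the S395 mice alone and -0.07 with the S491 mice alone. The change in the population difference between prefixes (S491 minus S395) was -0.92 for *Tap1*, -0.71 for *Tapbp* and -0.70 for *Tap2*, with adjusted P values of 0.310, 0.327 and 0.356 for the interaction by edgeR. These came from differences of 0.69, 0.40 and 0.25 with S395 mice and -0.25, -0.33 and -0.47 with S491 mice. The interaction was fitted with edgeR's newer quasi-likelihood method, not with the older one of the main fit. No gene of the 17095 passed the threshold for this interaction, and 3 of the 10 class I genes had an unadjusted P under 0.05, against 13.8% of all genes. For *B2m* the prefixes gave 0.31 and 0.51, in the same direction.

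The remaining genes of the class I pathway gave no calls with edgeR. Of 13 other class I heavy chain genes tested, none passed (median -0.04), and those with the smallest P were *H2-M3*, a presenter of formylated peptides (0.27, adjusted P = 0.534 by edgeR), *H2-Q10* (-0.34) and *H2-M2* (0.73). The share of their 50-base words that also occurs in other genes ran from 0.576% for *H2-M3* to 53.5% for *H2-T22* and was 19.1% for *H2-Q10*, so counts of the members with a high share are uncertain. None of 6 class I-like genes outside the MHC passed (median -0.14), nor did any of 14 other loading and quality control genes such as *Canx* and *Calr* (median -0.01) or of 11 cross-presentation genes (median 0.02), the set by which engulfed proteins reach class I. *Mr1*, which presents vitamin metabolites, had 0.51, *Hfe*, an iron regulator, 0.25, *Procr*, the protein C receptor, -0.46, *Tmem33* 0.28, *Uggt1* -0.25, *Sec61a1* -0.30, *Lnpep*, an aminopeptidase of endosomes, 0.47, *Vamp8* 0.34 and *Rab27a* -1.01 on the log2 scale, each with an adjusted P of 0.493 or above.

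Upstream of the class I genes, none of 16 transcription regulators and none of 8 genes of the interferon γ receptor pathway passed (medians -0.03 and -0.17). *Stat2* and *Irf9*, factors of the interferon response, had -0.33 and -0.18 (adjusted P = 0.693 and 0.678 by edgeR). *Jak2* had -0.50, *Socs1*, the inhibitor of the pathway, -0.52, and *Ifng* itself between 0 and 31 counts in a library.

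The immunoproteasome genes, which cut the peptides class I holds, were all 5 positive with a median of 0.41, and all 5 were higher in FCGR4+ cells of 4 of 4 mice, but none passed with edgeR. *Psme1*, an activator subunit, had 143, 113, 228 and 221 CPM in FCGR4+ against 103, 87.0, 174 and 159 CPM in FCGR4- libraries (0.43 ± 0.121, SE, adjusted P = 0.263). *Psmb9*, the neighbor of *Tap1*, with which it shares 212 bases of exon, had 0.41 (adjusted P = 0.303) and *Psmb10* 0.39 (0.376). DESeq2 called *Psme1* and *Psmb9* (adjusted P = 0.0185 and 0.0507). Across all genes, 8.38% were higher in 4 of 4 mice, as were 3 of the 10 class I genes.

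Of 13 class II presentation genes, 2 passed, both lower in FCGR4+ cells: *H2-Oa* (-2.32 ± 0.308, SE, adjusted P = 0.0361) and *H2-Ob* (-1.83 ± 0.304, SE, adjusted P = 0.0647) by edgeR. They encode the chains of H2-O, an inhibitor of class II loading known from B cells. *H2-Oa* had 0.624, 1.06, 1.04 and 1.16 CPM in FCGR4+ against 2.06, 6.92, 6.79 and 5.08 CPM in FCGR4- libraries, and *H2-Ob* 4.16, 3.51, 1.71 and 1.43 CPM against 9.59, 8.68, 8.29 and 8.54 CPM, with no overlap. Of the markers of other class II cells, 2 of 6 for B cells and 4 of 10 for dendritic cells were called lower in FCGR4+ cells, with no overlap of their sums, given above, and an antibody against B220 was among those listed for sorting. The part of B cells and dendritic cells in this was not tested. *H2-Oa* no longer passed without mouse 2 or mouse 4 (adjusted P = 0.138 and 0.114), and *H2-Ob* without any of the 4 mice (0.112 to 0.181). The median of the class II list was 0.19, and *Ctss*, the protease that frees class II for peptides, had 0.65 (adjusted P = 0.215 by edgeR and 0.00955 by DESeq2).

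**Figure D5:**
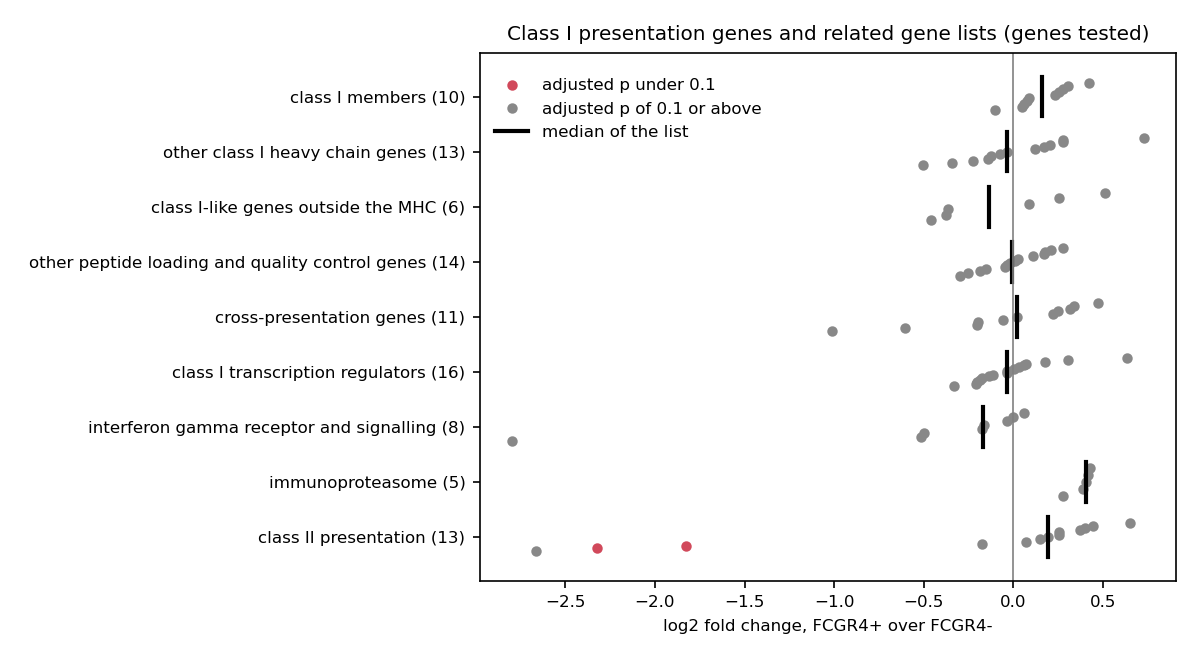
Fitted log2 fold change (FCGR4+ over FCGR4-, horizontal axis) of every tested gene in the class I set and in 8 related lists, with the number of genes in brackets; red points passed the threshold and black bars are medians. The 2 red points are *H2-Oa* and *H2-Ob*, and the immunoproteasome list has the highest median, 0.41.

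The genes whose profile over the 8 libraries was nearest to the mean profile of the 10 class I genes were *Plekhf2* (root mean square difference 0.0748 in log2 CPM), *Lcp2*, an adaptor of immune receptor signaling (0.0799), *Gm13310* (0.0887), *Nup50*, a nuclear pore gene (0.0969), and *Gm8508* (0.10). *Plekhf2* had 83.6, 77.5, 66.4 and 75.4 CPM in FCGR4+ and 46.7, 71.5, 79.7 and 71.5 CPM in FCGR4- libraries, with its lowest value in the FCGR4- library of mouse 1. None of the 5 passed between populations (differences of 0.07 to 0.22).

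The authors' counting gave a read pair with several mapping places to each of them and ignored strand, so part of some counts may belong to other genes. Of the 50-base words of a gene's transcripts, the share that also occurs in other genes was 12.8% for *H2-D1*, 9.63% for *H2-K1* and 14.5% for *H2-T23*, mostly in other class I genes or pseudogenes, and 0% for *B2m*. For *Tapbp* it was 23.2%, chiefly *Gm19412*, for *Tap2* 11.6% (*Gm15821*) and for *Erap1* 10.7% (*Cast*), where exons of the genes overlap. It was 3.33% for *Tap1* and under 1% for *Nlrc5* and *Pdia3*.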

How the data were processed

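Bulk RNA-Seq of 8 libraries was analyzed, FCGR4+ and FCGR4- eWAT macrophages of 4 mice. The authors mapped read pairs to mm10 with STAR and made gene counts with featureCounts 1.6.3 (GENCODE vM18), and deposited them without normalization, with multimapping pairs counted at each place and strand unused. Libraries were paired by the mouse number in the labels, which marks 1 animal, and deviations of the same mouse correlated at r = 0.291 to 0.428.

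Of all genes, 17095 reached 10 counts in 4 or more libraries and held at least 99.8% of counts. After TMM normalization they were fitted in edgeR 4.0.16 (R 4.3.3) with terms for mouse and population, and the quasi-likelihood P values were adjusted over all of them by Benjamini-Hochberg (threshold 0.1). SE is the log2 fold change over the root of F. Ratios per mouse use log2 CPM with a prior count of 2. DESeq2 1.42.0 and other settings were alternatives. Scripts were tested on simulated data. Exon lengths are the authors'. Named genes are the members, *Fcgr4*, per related list those called and the 3 smallest P, and the 5 nearest profiles (1 such gene is not reported here), and marker genes were fixed by name. The members and lists were chosen with earlier results of these data known. Promoters come from RefSeq.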

Additional observations from a re-analysis of the deposited data

Results flagged for a closer look

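In 60 groups of 4 mice examined for the named genes, 3 had a mouse far from the other 3, as judged by the gap to the nearest mouse over the whole range (Dixon's test at the 95% level). Chance alone marks about 1 in 20 groups, which is 3 here. For *H2-D1* in FCGR4+ libraries this ratio was 0.969: mouse 2 had a log2 CPM of 13.21 and the others 12.13 to 12.17. Mouse 2 was also highest in its FCGR4- library. For the log2 ratio of *B2m* between populations it was 0.878, with 0.13 in mouse 2 against 0.49 to 0.54. For the log2 ratio of *Ifng* it was 0.868, with -4.04 in mouse 3 against -1.55 to -1.17. *Ifng* had 0 counts in the FCGR4+ libraries of mice 1 and 3 and at most 31 in any library, so its ratio depends on the prior count. The causes were not tested.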

How the results depend on the processing

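With no replicate block the class I genes gave a median of 0.15 and 0 calls, and *B2m* 0.42 (adjusted P = 0.898 by edgeR). The median over the class I genes lay between -0.07 and 0.40 over all settings and between -0.00 and 0.28 with a mouse left out. No member passed in any setting except *B2m* with DESeq2 (0.42; 1 higher call). Library size alone moved the median of all genes from -0.00 to -0.09 and that of the class I genes from 0.16 to 0.07. Under this shift the signs turned for *H2-D1* (-0.0320), *Tapbp* (-0.0440), *Nlrc5* (-0.0158) and *Pdia3* (-0.0030). With the S491 mice alone signs turned for *H2-D1* (-0.14), *Tap1* (-0.25), *Tapbp* (-0.33), *Nlrc5* (-0.24), *Pdia3* (-0.0053), *Plekhf2* (-0.12), *Lcp2* (-0.12), *Gm13310* (-0.0605), *Nup50* (-0.0881) and *Gm8508* (-0.0865, and -0.0203 with library size alone), and with the S395 mice alone for *Tap2* (0.25), *Uggt1* (0.0421), *Sec61a1* (0.20) and *Stat2* (0.19). With a mouse left out the ranges were -0.0078 to 0.13 for *H2-D1* and -0.15 to 0.19 for *Tapbp*, negative without mouse 1 or 2, -0.32 to 0.0390 for *Tap2*, positive without mouse 3, and, negative without mouse 1, -0.0067 to 0.41 for *Tap1*, -0.33 to 0.29 for *Nlrc5*, -0.0352 to 0.16 for *Pdia3*, -0.0238 to 0.33 for *Plekhf2*, -0.0120 to 0.22 for *Lcp2* and -0.0262 to 0.14 for *Gm8508*.

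Over all genes, 217 passed (14 higher, 203 lower). The numbers were 48 (1, 47) with no replicate block, 1024 (192, 832) with DESeq2, 629 (57, 572) with edgeR's newer method, 1054 (159, 895) with no filter, 76 (2, 74) at a threshold of 0.05, 113 (7, 106) with S395 mice, 113 (29, 84) with S491 mice, 8 higher with library size alone, and 84 to 163 (2 to 9, 82 to 154) with a mouse left out. Among the lists, DESeq2 called 1 regulator, 2 immunoproteasome genes and 2 class II genes higher; no filter called 1 regulator and 1 class II gene higher. The 2 lower class II calls became 1 with no replicate block or at 0.05, 0 with either prefix alone, and 0 to 1 with a mouse left out. Nothing else moved the class I counts. The causes were not tested. *Nlrc5* had the fewest counts of the members.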
